A study of Homo sapiens with 12 samples.

Results

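Integrins and laminins couple a cell to its extracellular matrix. The genes described here encode integrin alpha and beta subunits, laminin alpha, beta and gamma chains, the nidogens NID1 and NID2, and dystroglycan (DAG1). They were chosen by symbol alone, without use of a measured value. The GENCODE annotation holds 41 such protein-coding genes, of which 37 are listed in the deposited tables. The i3N table lists 37 among 19016 genes and the iMN table lists 34 among 16406, and these 34 belong to the 16093 genes common to both tables. ITGAL, ITGAM and ITGB2, which encode leukocyte integrin subunits, are listed in the i3N table alone, with mean normalized counts of 3.26, 3.47 and 4.48. ITGAD, ITGAX, ITGB6 and ITGB7 were not analysed here.

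Total RNA was sequenced from human neurons with and without knockdown of SMN1 and SMN2, whose loss causes spinal muscular atrophy. iMNs are neurons differentiated from an induced pluripotent stem cell line that carries Td-Tomato under the HB9 promoter, sorted for that reporter and labelled as motor neurons. i3Ns are neurons made by inducing NGN2 in H1, an established human embryonic stem cell line, and are labelled as cortical neurons. Each cell type has 3 SCR samples, which received lentiviral scrambled shRNA, and 3 SMN-KD samples, which received lentiviral shRNA against SMN1/2 for 12 days, so that there are 12 samples in 4 groups. Each cell type comes from 1 stem cell line and 1 protocol, and cell type, line and protocol cannot be told apart. The labels do not say that replicates were separate cultures, so the p-values measure the spread between these samples alone. The iMNs had been replated on plates coated with laminin protein.

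An integrin is a pair of an alpha and a beta subunit that spans the membrane, binds matrix or another cell outside, and recruits talin, kindlin and kinases inside. A laminin is a trimer of an alpha, a beta and a gamma chain that polymerizes into basement membranes, where nidogens tie it to type IV collagen and where integrins and dystroglycan hold it at the cell surface. In neurons these proteins are known for their part in axon outgrowth, and laminin is a common coating for neuronal cultures.

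Summed over 5 identifiers, SMN1 and SMN2 RNA was lower by 77.9% in SMN-KD iMNs and by 82.7% in SMN-KD i3Ns. Markers set the makeup of the cultures beside the results. All 8 pan-neuronal markers were listed in both tables and none was called. At an adjusted p under 0.01, 6 of them fell in each cell type, while 2 rose in iMNs and 1 in i3Ns. Of all genes, 18.7% fell and 17.1% rose at this threshold in iMNs, and 25.7% and 22.8% in i3Ns. The summed normalized count of the 8 pan-neuronal markers went from 652835 in SCR to 520920 in SMN-KD in iMNs, and from 833714 to 611365 in i3Ns. The 8 motor neuron markers were also listed in both, and the means of ISL1 (14299) and MNX1 (2279) in the i3N table show that these genes were not restricted to the cells labelled motor neurons. In the iMN table their means were lower, at 1663 and 430. ISL2, LHX3 and LHX4 also had the higher mean in i3Ns. SLC18A3 and SLC5A7 had the higher mean in iMNs, and CHAT was at 533 in iMNs and 527 in i3Ns. The tables were normalized separately, so these means are a description. Of this list, CHAT (log2 fold change -3.00) and SLC5A7 (-1.85) were called down in i3Ns and CHAT (-1.09) in iMNs. Fibroblast and mesenchymal markers moved with the knockdown. In i3Ns, 5 of the 10 were called down, against 9.53% of all genes. Called up were 2, against 4.23% of all genes, PDGFRA (log2 fold change 1.33) and TWIST1 (1.24). ACTA2 (0.64) rose there by adjusted p alone. The summed normalized count of the 10 was 11838 in SCR and 2048 in SMN-KD. COL1A1 and COL3A1 carried most of the SCR sum. In iMNs the summed count of the 8 listed markers went from 1995 to 3401. None was called, 4 rose at an adjusted p under 0.01, and DCN and PRRX1 are not listed. In the i3N table DCN and PRRX1 had means of 3.89 and 5.58. Of 5 listed Schwann cell and oligodendrocyte markers, 4 fell in i3Ns, from a sum of 2381 to 845, with SOX10 not listed. Among 4 pluripotent cell markers in i3Ns, LIN28A and DPPA4 rose and the sum went from 1623 to 7237, while POU5F1 and NANOG had means of 13.9 and 7.73. The part of these shifts in the results below was not tested. In bulk RNA, fewer cells of a type and less RNA per cell cannot be told apart.

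Some of these genes carry, in the 3′-UTR of their MANE Select transcript, 7 bases that pair with the guide of the shRNA against SMN1/2. The matches are CTAATAA, complementary to guide bases 2 to 8, and GCTAATA, complementary to guide bases 3 to 9. They overlap by 6 letters, and both were searched on the transcript strand alone. The windows of 30 bases below, read 5′ to 3′ on the transcript from GRCh38 (hg38), belong to ITGB8, the only gene of the set called in iMNs, to ITGA4 and ITGA9, which fell in i3Ns, and to ITGA2B, which rose in i3Ns. Capitals mark the match.
ITGB8, chr7:20410732-20410761, plus strand, exon 14 of 14: gccataaaaaaCTAATAAtacaatgtcact
ITGB8, chr7:20413129-20413158, plus strand, exon 14 of 14: tttggaaacttGCTAATAtttattaagtca
ITGA4, chr2:181536411-181536440, plus strand, exon 28 of 28: accatacctcaCTAATAActttaaaatcaa
ITGA4, chr2:181538288-181538317, plus strand, exon 28 of 28: ttcacatacacCTAATAAgtatggtacaca
ITGA4, chr2:181538645-181538674, plus strand, exon 28 of 28: tctgtaaaggcCTAATAAaagcaaattact
ITGA9, chr3:37820694-37820723, plus strand, exon 28 of 28: tggataaccatCTAATAAgacagaaaacat
ITGA9, chr3:37820939-37820968, plus strand, exon 28 of 28: acacatacttgGCTAATActcacaaacata
ITGA2B, chr17:44372185-44372214, minus strand, exon 30 of 30: cctcctgctgcCTAATAAagagactgagcc
A match was present in 11 of the 34 genes of the iMN table (32.4%, against 19.1% of all its genes with a 3′-UTR) and in 11 of the 37 of the i3N table (29.7%, against 18.6%). The other genes with a match are ITGA2, ITGA8, ITGAV, LAMA1, LAMA4, LAMB4 and LAMC1. The median 3′-UTR of the set was 1548 bases in the iMN table against 1359 bases over all genes. A match describes the letters, and binding was not measured.

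The set was expressed at widely different levels. Levels are compared between genes as the mean normalized count of a table, over SCR and SMN-KD together, per 1000 bases of MANE Select transcript. ITGB1, the beta subunit shared by most matrix-binding integrins, stood highest in both tables, at 3184 per kb in iMNs and 7813 per kb in i3Ns. DAG1 came next in both by this mean, at 1016 and 1202 per kb, while in SCR i3Ns alone LAMC1 (1407 per kb) stood above DAG1 (1274 per kb). Among alpha subunits, the laminin-binding ITGA3 (606 per kb) and ITGA7 (565 per kb) led in iMNs, and the same genes led in i3Ns in the other order, ITGA7 at 672 and ITGA3 at 439 per kb. ITGB8, which pairs with the alpha V subunit, was the beta subunit next to ITGB1 at 129 per kb in iMNs and 35.3 per kb in i3Ns, while in SCR i3Ns alone ITGB5 (34.8 per kb) stood above ITGB8 (24.5 per kb). The highest laminin chains in iMNs were LAMA5 (250 per kb) and LAMC1 (241 per kb), and in i3Ns LAMC1 (1000 per kb) and LAMB1 (525 per kb). In SCR iMNs the 3 laminin-binding alphas made up 82.4% of the summed per-length level of all alpha subunits, and in SCR i3Ns 57.1%. The tables were normalized separately, so values from both describe levels and are no test between cell types.

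**Figure D1:**
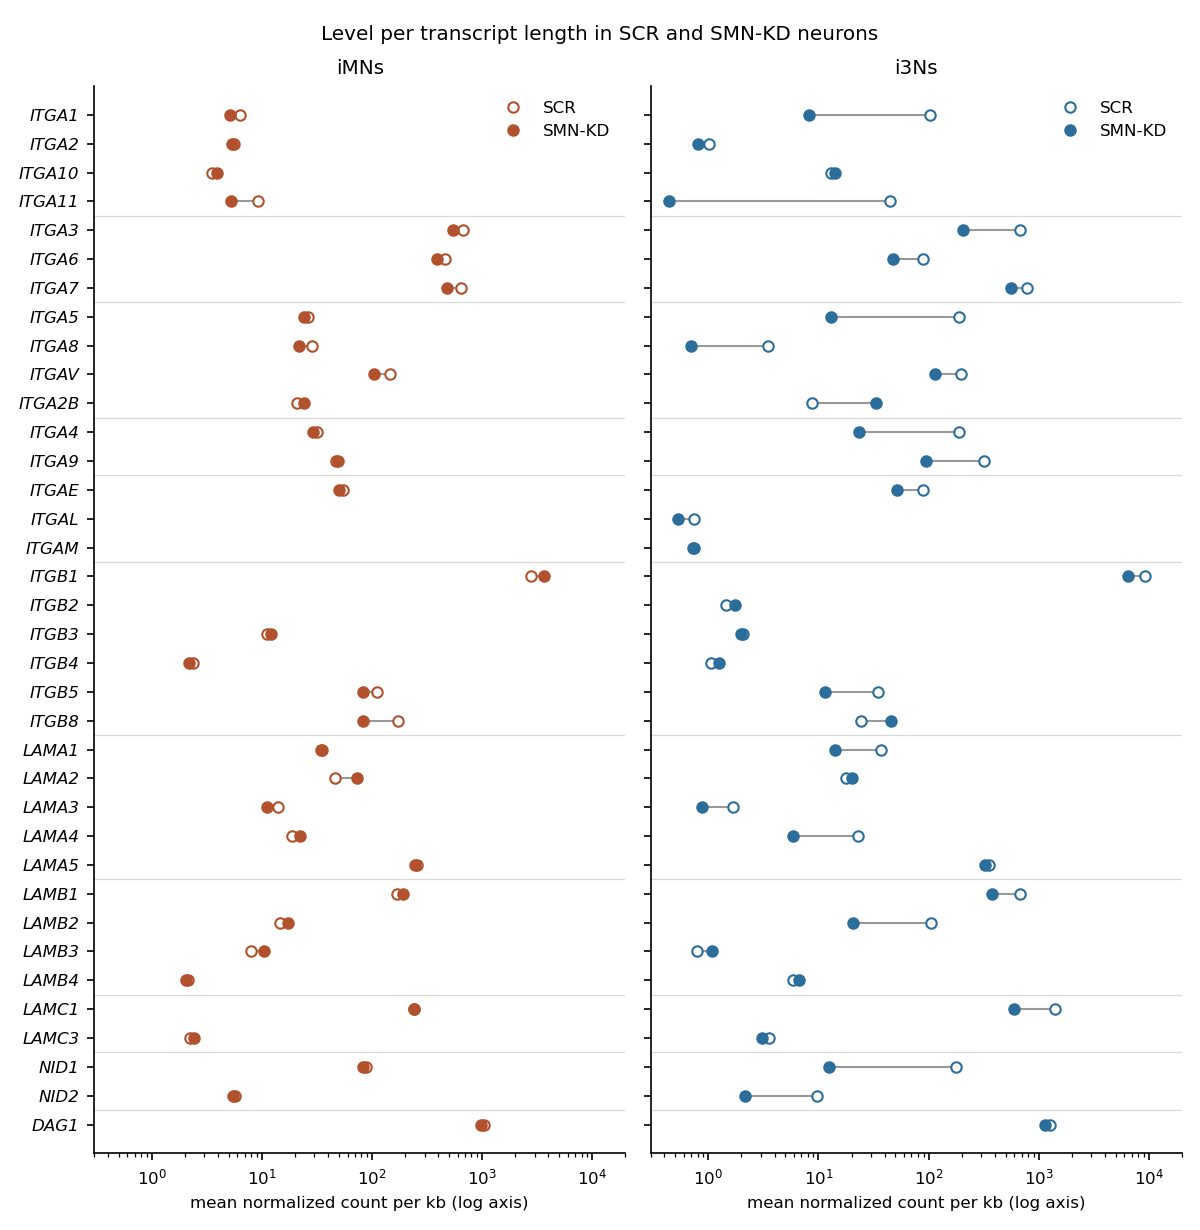
Mean normalized count per kb of MANE Select transcript (log axis) of the genes reported here in SCR (open circles) and SMN-KD (filled circles), in iMNs at left and i3Ns at right, with grey lines between groups of genes by role. In iMNs the circles nearly coincide for most genes, while in i3Ns ITGA1, ITGA11, ITGA5, ITGA4 and NID1 sit far lower in SMN-KD and ITGB1 is highest in both groups.

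In iMNs, ITGB8 fell and was the only gene of the set called, while 7 others changed by less. A gene is said to have fallen or risen where its adjusted p-value was under 0.01, and is called where its log2 fold change also exceeded 1 in size, the thresholds of the study. By the second criterion 1 of 34 genes was called down, against 2.37% of all genes of the table, and 0 were called up, against 0.969%. By adjusted p alone, 6 fell and 2 rose, where 18.7% and 17.1% of all genes did. The deposited DESeq2 test put 9 lower and 4 higher at an unadjusted p under 0.05. The median log2 fold change of the set was -0.07, beside 0.00 over all genes, and its summed normalized count was 36714 in SCR and 36734 in SMN-KD. Changes in both directions make up this sum. ITGB1 alone went from 10296 to 13490 and the laminin chains from 7057 to 7331, while the integrin alphas went from 11044.5 to 8904.12.

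ITGB8 had a mean normalized count of 1562 in SCR iMNs and 752 in SMN-KD iMNs, a log2 fold change of -1.06 ± 0.09 (SE, 3 samples per group, adjusted p = 7.37e-30). It was thus just beyond the fold change threshold. The other genes that fell did so by less. All 3 laminin-binding alphas were among them. ITGA7, the main alpha subunit of muscle, went from 2667 to 1997 (log2 fold change -0.42 ± 0.07, adjusted p = 6.51e-10). ITGA3 went from 3279 to 2643 (-0.31 ± 0.06, adjusted p = 1.67e-06), and ITGA6 from 2682 to 2247 (-0.25 ± 0.06, adjusted p = 2.06e-04). These falls left the laminin-binding alphas at 81.4% of the summed per-length alpha level. ITGAV and ITGB5, which form a receptor for vitronectin, also fell, ITGAV from 1026 to 741 (-0.47 ± 0.11, adjusted p = 1.78e-05) and ITGB5 from 495 to 369 (-0.42 ± 0.14, adjusted p = 0.00234).

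ITGB1 moved the other way in iMNs. Its mean normalized count was 10296 in SCR and 13490 in SMN-KD, a log2 fold change of 0.39 ± 0.04 (adjusted p = 7.54e-19). LAMA2, the laminin alpha chain of muscle and peripheral nerve that is mutated in a congenital muscular dystrophy, rose from 446 to 706 (0.66 ± 0.12, adjusted p = 1.29e-08). The remaining 11 laminin chains passed at neither threshold. LAMC1, the gamma chain of most laminins, was at 1907 and 1918 (0.01 ± 0.11), and LAMA5 at 2932 and 2784 (-0.07 ± 0.07). NID1 was at 509 and 476 (-0.10 ± 0.12), NID2 at 27.6 and 26.9 (-0.04 ± 0.25) and DAG1 at 5644 and 5300 (-0.09 ± 0.04, adjusted p = 0.0440). The adjusted p-value of none of these last genes was under 0.01.

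In i3Ns these families fell broadly. Of 37 genes, 14 were called down (37.8%, against 9.53% of all genes of the table) and 1 was called up (2.70%, against 4.23%). By adjusted p alone, 21 fell and 3 rose, where 25.7% and 22.8% of all genes did. The median log2 fold change was -0.78, beside 0.01 over all genes, and the summed normalized count went from 78112 in SCR to 47788 in SMN-KD. Of the 22 genes whose mean reached 100 normalized counts, 12 were called down, against 9.11% of all genes at that level. By role, 7 of 16 integrin alphas, 1 of 6 integrin betas, 4 of 12 laminin chains and both nidogens were called down. DAG1 was not called.

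**Figure D2:**
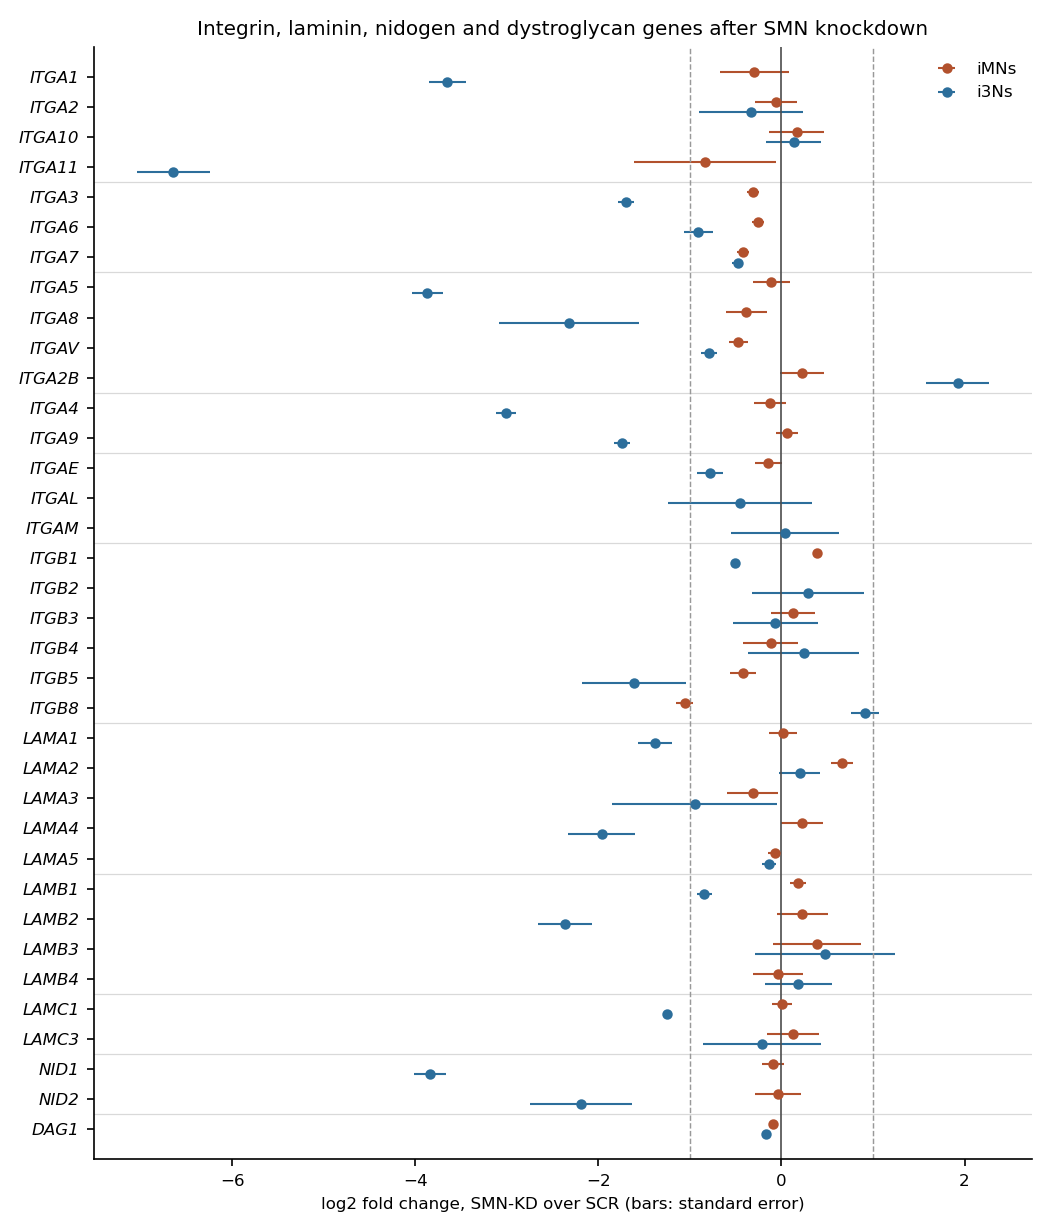
Log2 fold change (SMN-KD against SCR) of the genes reported here in iMNs (red) and i3Ns (blue), with bars for the deposited standard error (3 samples per group), a solid line at 0 and dashed lines at the fold change threshold. The i3N points reach from -6.64 for ITGA11 to 1.93 for ITGA2B, while among iMN points ITGB8 alone lies beyond the dashed lines.

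Of the 4 collagen-binding alphas, ITGA1 and ITGA11 were called down in i3Ns. ITGA1 went from a mean normalized count of 1114 to 88.7 (log2 fold change -3.65 ± 0.20, adjusted p = 4.01e-75), a level 12.6-fold lower. ITGA11, a receptor for fibrillar collagen best known from fibroblasts, went from 453 to 4.53 (-6.64 ± 0.40, adjusted p = 3.96e-62). COL1A1, a chain of the collagen that both receptors bind, is among the mesenchymal markers that fell. ITGA10 and ITGA2 passed at neither threshold, with means of 69.7 and 7.08. The summed per-length level of the 4 collagen-binding alphas was 162 per kb in SCR and 23.7 per kb in SMN-KD. ITGA1 shares exon sequence with PELO on the same strand, which had a log2 fold change of 0.00 in i3Ns.

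Of the laminin-binding alphas, ITGA3 was called down, from 3281 to 1010 (-1.70 ± 0.09, adjusted p = 6.44e-88). ITGA6 and ITGA7 fell without passing the fold change threshold, ITGA6 from 516 to 275 (-0.91 ± 0.16, adjusted p = 1.77e-08) and ITGA7 from 3227 to 2318 (-0.48 ± 0.06, adjusted p = 2.93e-15). ITGA7 was the most abundant alpha subunit per length in SCR i3Ns (782 per kb, with ITGA3 at 671) and in SMN-KD i3Ns (562 per kb, with ITGA3 at 207).

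The alphas that recognise the RGD motif of fibronectin and vitronectin divided. ITGA5, the main fibronectin receptor subunit, went from 804 to 55.1 (-3.87 ± 0.17, adjusted p = 1.42e-116), 14.6-fold lower. ITGA8 was called down at low level, from 22.6 to 4.52 (-2.32 ± 0.77, adjusted p = 4.51e-04), and ITGAV fell from 1394 to 806 (-0.79 ± 0.08, adjusted p = 2.66e-20). ITGA2B, the platelet fibrinogen receptor subunit, was the only gene of the set called up, from 30.4 to 116 (1.93 ± 0.34, adjusted p = 8.55e-09). Of 4 platelet and megakaryocyte markers, 1 was listed in the i3N table, with a mean of 8.47, and GP9, PF4 and PPBP were not listed.

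ITGA4 and ITGA9, related alphas that bind fibronectin, VCAM1 and tenascin, both were called down. ITGA4 went from 1275 to 158 (-3.01 ± 0.11, adjusted p = 4.52e-156) and ITGA9 from 2481 to 743 (-1.74 ± 0.09, adjusted p = 3.89e-85). ITGA4 shares exon sequence with CERKL on the opposite strand, which rose in i3Ns with a log2 fold change of 1.40. Whether the libraries kept the strand is not given in the sources used here, so reads of this shared stretch cannot be told apart. ITGAE, a leukocyte integrin subunit that binds E-cadherin, fell from 340 to 198 (-0.78 ± 0.14, adjusted p = 6.03e-08), while 3 of 6 leukocyte markers were not listed in this table.

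Among the beta subunits of i3Ns, ITGB1 fell, from 34293 to 24071 (-0.51 ± 0.03, adjusted p = 1.04e-76). The summed per-length level of all alpha subunits was 2698 per kb in SCR and 1172 per kb in SMN-KD. ITGB5 was called down, from 154 to 50.6 (-1.61 ± 0.57, adjusted p = 7.89e-04). ITGB8 rose from 219 to 413 (0.91 ± 0.15, adjusted p = 1.11e-09). ITGB2, ITGB3 and ITGB4 had means between 4.48 and 12.1 and passed at neither threshold.

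Every chain class of laminin had a member that was called down in i3Ns. LAMC1 went from 11155 to 4698 (-1.25 ± 0.04, adjusted p = 8.55e-175). LAMB2, the beta chain of the neuromuscular synapse, went from 602 to 117 (-2.37 ± 0.29, adjusted p = 1.39e-16). LAMB1 fell from 3810 to 2126 (-0.84 ± 0.08, adjusted p = 2.67e-26) without being called. LAMB1 shares exon sequence with DLD on the opposite strand, which had a mean of 5086 and a log2 fold change of -0.24 in i3Ns. Of the alpha chains, LAMA1, prominent in the early embryo, went from 357 to 137 (-1.38 ± 0.19, adjusted p = 1.64e-13), and LAMA4, prominent in vessels and nerve, went from 164 to 42.1 (-1.96 ± 0.37, adjusted p = 2.40e-08). LAMA5, the most abundant alpha chain, was at 4058 and 3693 (-0.14 ± 0.08, adjusted p = 0.138). The summed per-length levels of SCR and SMN-KD i3Ns were 434 and 365 per kb for alpha chains, 787 and 404 per kb for beta chains, and 1421 and 615 per kb for gamma chains.

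Both nidogens fell in i3Ns. NID1 went from 1036 to 72.4 (-3.84 ± 0.17, adjusted p = 6.16e-112), 14.3-fold lower. NID2 went from 47.7 to 10.4 (-2.19 ± 0.56, adjusted p = 1.47e-05). NID2 shares exon sequence with RTRAF on the opposite strand, a more abundant gene with a log2 fold change of 0.07. DAG1, the laminin receptor of the dystrophin complex, went from 6861 to 6093 (-0.17 ± 0.04, adjusted p = 2.72e-05).

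The response of each gene was set against that in the other cell type by a Wald z, built on both deposited fold changes with their errors and adjusted over 16093 genes. Of the 34 genes, 18 (52.9%) differed at an adjusted p under 0.01, where 34.0% of all genes did. Of these, 16 had the lower fold change in i3Ns, where 18.1% of all genes did, and 2 had the higher. The median difference, i3Ns minus iMNs, was -0.64 on the log2 scale, beside 0.00 over all genes. The difference for ITGA11 was -5.81 (95% interval -7.52 to -4.09), on an iMN fold change of -0.84 ± 0.78 at a mean of 74.1. ITGA5 differed by -3.75 (-4.27 to -3.24), NID1 by -3.74 (-4.15 to -3.34) and ITGA1 by -3.36 (-4.20 to -2.51). ITGA4 differed by -2.88, LAMB2 by -2.59, LAMA4 by -2.19 and NID2 by -2.15. Smaller differences, from -1.80 to -0.63, were found for ITGA9, LAMA1, ITGA3, LAMC1, LAMB1, ITGB1, ITGA6 and ITGAE.

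ITGB8 and ITGB1 changed in opposite directions in the cell types. The fold change of ITGB8 was higher in i3Ns by 1.97 (95% interval 1.62 to 2.31, adjusted p = 1.06e-27), and that of ITGB1 differed by -0.90 ± 0.05 (SE, adjusted p = 1.21e-67). ITGA2B was the other gene with a higher fold change in i3Ns, by 1.71 (0.88 to 2.53). Differences were not called for ITGA7 (-0.06, -0.23 to 0.11), LAMA5 (-0.06, -0.27 to 0.15) or DAG1 (-0.08, -0.19 to 0.03), whose intervals are narrow. ITGA8 and ITGB5, both called down in i3Ns, were not called as different (-1.94, -3.50 to -0.38, and -1.19, -2.33 to -0.05). With the standard errors doubled, 10 genes were called lower and 1 higher. The fibroblast and mesenchymal marker sum also moved in opposite directions, down in i3Ns and up in iMNs, and its part in these differences was not tested.

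**Figure D3:**
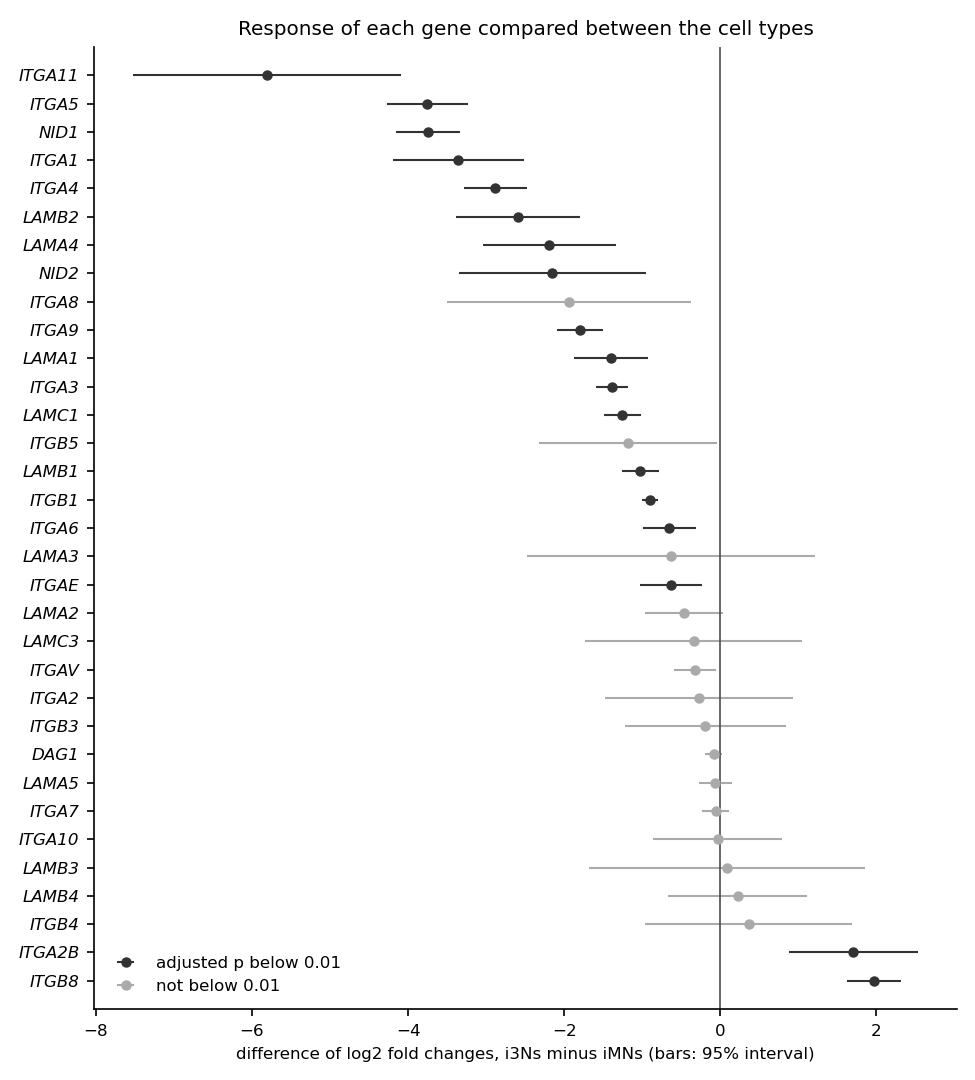
Difference of the log2 fold changes, i3Ns minus iMNs, for the genes of both tables reported here, with bars for the 95% interval, in black where the adjusted p is under 0.01 and grey elsewhere. The black points reach from -5.81 for ITGA11 to -0.63 for ITGAE at left of 0, and ITGA2B (1.71) and ITGB8 (1.97) are the only black points at right of it.

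Genes with and without the 7-base matches were found on both sides of these changes. ITGB8, with both matches, fell in iMNs and rose in i3Ns. In i3Ns, 6 of the 11 genes with a match were called down (54.5%, against 17.7% of all genes with a match), namely ITGA4, ITGA8, ITGA9, LAMA1, LAMA4 and LAMC1. Of the 26 without a match, 8 were called down (30.8%, against 9.37% of all genes without), among them ITGA1, ITGA5, ITGA11 and NID1. In iMNs 1 of 11 was called down with a match (9.09%, against 8.49% of all genes) and 0 of 23 without (against 1.12%). The median log2 fold change in i3Ns was -1.25 for the 11 genes with a match and -0.49 for the 26 without, beside -0.20 and 0.02 over all genes. In iMNs it was -0.04 for the 11 with a match and -0.09 for the 23 without, beside -0.15 and 0.03 over all genes. ITGA4, with 3 matches, was at 214 in SCR and 196 in SMN-KD iMNs (-0.13 ± 0.17).

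Other genes of matrix adhesion were taken from 5 lists that hold 117 genes, of which 108 are listed in the iMN table and 111 in the i3N table. In iMNs 3 were called down (2.78%, against 2.37% of all genes) and 3 up (2.78%, against 0.969%). In i3Ns 32 were called down (28.8%, against 9.53%) and 5 up (4.50%, against 4.23%). Integrin adaptors and kinases, the proteins recruited inside the cell, had 2 of 29 called down in iMNs (6.90%) and 8 of 29 called down in i3Ns (27.6%), with 1 called up there (3.45%). The scaffold NEDD9 was called down in both cell types, at -1.25 ± 0.22 on the log2 scale in iMNs and at -3.39 ± 0.24 in i3Ns. TNS1, a tensin that links integrins to actin, was the other call in iMNs (-1.16 ± 0.08). It was also called down in i3Ns (-1.88 ± 0.08). LIMS2, a partner of integrin-linked kinase, was at -2.91 ± 0.49 in i3Ns. The median log2 fold change of this list was -0.12 in iMNs and -0.10 in i3Ns.

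Extracellular ligands of integrins other than laminins and collagens had 14 of 28 called down in i3Ns (50%, against 9.53% of all genes) and 3 called up (10.7%, against 4.23%). The largest falls were those of THBS1, a matricellular thrombospondin (-4.35 ± 0.24), and TNR, a tenascin of the nervous system (-3.91 ± 0.41). MADCAM1 (2.25 ± 0.26) and NPNT (2.05 ± 0.49), ligands of leukocyte and RGD-binding integrins, rose most. In iMNs 1 of 26 was called, and it was called up (3.85%, against 0.969% of all genes). This was ICAM1, a ligand of leukocyte integrins (1.32 ± 0.19). In i3Ns ICAM1 was called down at a mean of 21.4 (-3.57 ± 0.89). The list's median was 0.07 in iMNs and -0.86 in i3Ns.

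Basement membrane partners of laminin had 6 of 18 called down (33.3%) and 1 up (5.56%) in i3Ns. COL4A6, a type IV collagen chain, was at -3.09 ± 0.49, the proteoglycan HSPG2 (perlecan) at -1.99 ± 0.19, and SMOC1 was called up at 1.02 ± 0.37. In iMNs COL4A5 was the 1 call of 19 and rose (1.48 ± 0.28). The list's median was 0.06 in iMNs and -0.45 in i3Ns. Other laminin receptors had 3 of 10 called down in i3Ns (30%, against 9.53% of all genes), SDC4 (-3.57 ± 0.43), BCAM (-2.46 ± 0.20) and SV2C. In iMNs none of 10 was called, while 2 fell and 1 rose by adjusted p, where 18.7% and 17.1% of all genes did. The medians of this list were -0.68 on the log2 scale in i3Ns and -0.07 in iMNs.

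The dystroglycan complex and the enzymes that glycosylate it had 1 of 26 called down in i3Ns (3.85%, against 9.53% of all genes) and none up. The call was SNTB1, a syntrophin, at a mean of 15.2 (-1.63 ± 0.74). In iMNs 1 of 24 was called down (4.17%, against 2.37%) and 1 up (4.17%, against 0.969%), SGCZ, a sarcoglycan, down (-1.48 ± 0.10) and SNTB1 up at a mean of 31.8 (1.57 ± 0.48). By adjusted p alone, 3 of 26 fell and 11 rose in i3Ns, where 25.7% and 22.8% of all genes did. In iMNs 2 of 24 fell and 7 rose, where 18.7% and 17.1% of all genes did. The list's median was 0.21 in i3Ns and 0.12 in iMNs.

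**Figure D4:**
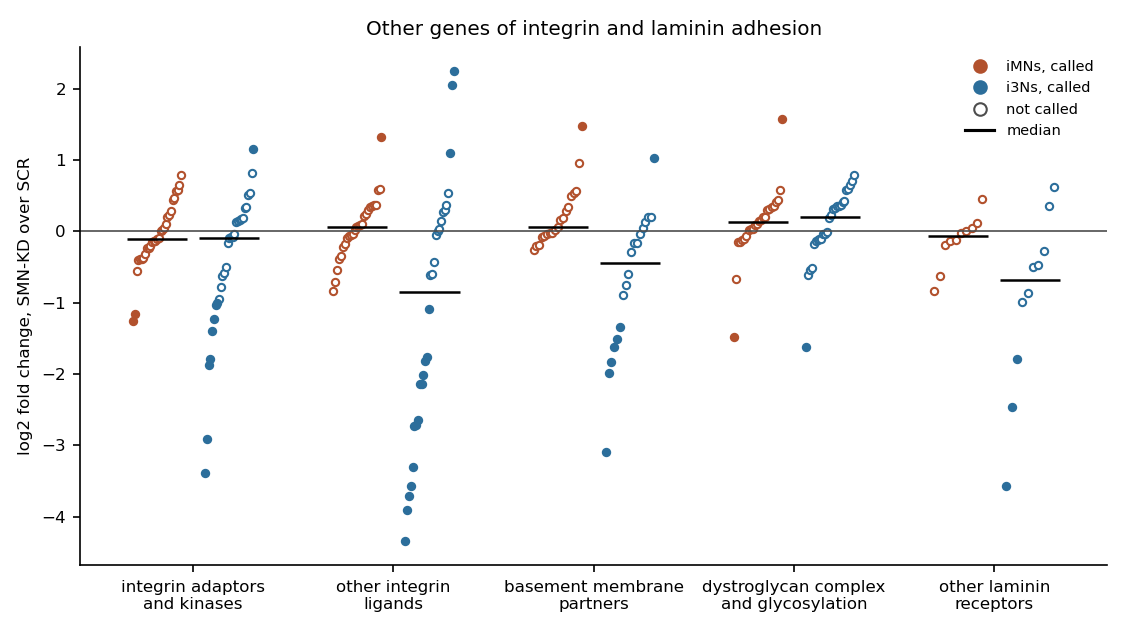
Log2 fold change (SMN-KD against SCR) of the genes of 5 lists of integrin and laminin adhesion, in iMNs (red) and i3Ns (blue), each gene a circle in order of its value, filled where called, with a black bar at the list's median. In i3Ns the other integrin ligands reach -4.35 with a median of -0.86, and the dystroglycan complex stays near 0 with 1 gene called.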

How the data were processed

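Total RNA libraries depleted of ribosomal RNA were sequenced for 12 samples in 4 groups. The authors used fastp for trimming, Salmon for quantification and DESeq2 for the test of SMN-KD against SCR within each cell type. STAR and hg38 are also named in the submitters' processing notes. Versions and the transcript annotation are not given in the sources used here. A deposited table per cell type gives, gene by gene, the mean normalized count signal over 6 libraries (counts divided by size factors), a log2 fold change and its standard error, a p-value and an adjusted p-value (Benjamini-Hochberg). The log2 fold changes are the authors' comparison. A count test had been planned, and as counts per library were not analysed here, the deposited values were used, so total counts per library are not given and precision is that of the deposited standard errors.

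Group means were derived from the mean and the fold change, with 3 libraries per group. The fold changes appear shrunken: the ratio of fold change to standard error was, in the median, 0.979 (iMNs) and 0.995 (i3Ns) of the z of the p-value at a mean of at least 1000, and 0.466 and 0.580 at a mean under 100. The derived group means rest on these fold changes, so they stand closer together than they would without shrinkage, most of all in weakly expressed genes. Called genes had an adjusted p under 0.01 and a log2 fold change beyond 1 in size. Cell types were compared by a Wald z on the difference of fold changes with Benjamini-Hochberg adjustment, a step tested on simulated data. The simulated fold changes had noise of the size of the deposited standard errors and no shrinkage. The behaviour of the step on shrunken fold changes was therefore not tested. Positions, lengths and 3′-UTRs came from GENCODE release 44 on GRCh38. Python 3.11.15, numpy 2.4.6, pandas 2.3.3, scipy 1.17.1 and matplotlib 3.10.9 were used.

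Genes named are every one called in either cell type or differing between them, the 2 highest per length among integrin alphas, betas and laminins, NID1, NID2 and DAG1, and from each other list at most the 2 largest falls and rises called in a cell type. SV2C, the overlapping genes, the genes that fell or rose by adjusted p alone and the markers named were added after their values were seen. The genes and lists were chosen with earlier results of these data known. Lists of astrocyte and endothelial markers had no gene called in either table, and of glutamatergic markers CAMK2A was called, up in iMNs. By adjusted p alone, 3 of the 4 glutamatergic markers fell in i3Ns, where 25.7% of all genes did. Their summed normalized count there went from 22934 in SCR to 13982 in SMN-KD. In iMNs 1 fell and 1 rose, and the sum went from 4657 to 4840. The part of these shifts in the results was not tested. Of the genes picked by these rules, some are not reported here, and they stay in the counts.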

Additional observations from a re-analysis of the deposited data

Results flagged for a closer look

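Fold changes that differed between the cell types are gathered here, as i3Ns minus iMNs on the log2 scale, each by the Wald z adjusted over 16093 genes. Lower in i3Ns were ITGA11 (-5.81), ITGA5 (-3.75), NID1 (-3.74), ITGA1 (-3.36), ITGA4 (-2.88), LAMB2 (-2.59), LAMA4 (-2.19), NID2 (-2.15), ITGA9 (-1.80), LAMA1 (-1.40), ITGA3 (-1.39), LAMC1 (-1.26), LAMB1 (-1.02), ITGB1 (-0.90), ITGA6 (-0.65) and ITGAE (-0.63). Higher in i3Ns were ITGA2B (1.71) and ITGB8 (1.97). ITGA11 and ITGA1 had iMN means of 74.1 and 61.5, where shrinkage was strong. With fold changes rebuilt without shrinkage, an alternative chosen after seeing the data, their differences were -4.70 and -3.03. No group has 4 samples, so no sample was examined for standing apart.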

How the results depend on the processing

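Among 244 alternative values, 32 were fold changes of called genes, and the rest were counts or medians, which have no sign to reverse. All 32 kept their sign and stayed past the threshold, but their settings could hardly give another outcome. Rebuilding without shrinkage keeps the sign and enlarges the value, and centring on the median shifted values by only 0.006 in iMNs and 0.013 in i3Ns. With no fold change threshold, members called in iMNs numbered 6 down and 2 up and in i3Ns 3 up, and the genes of the 5 lists numbered 20 down and 28 up in iMNs and 50 down and 24 up in i3Ns. At that setting 18.7% of all genes were down and 17.1% up in iMNs, and 25.7% and 22.8% in i3Ns. With a threshold of 0.5, members called up were 1 in iMNs and 3 in i3Ns, and list genes 8 down and 13 up in iMNs and 15 up in i3Ns. Keeping means of at least 100 left 0 members and 3 list genes called up in i3Ns and 1 member with a higher fold change in i3Ns than in iMNs. With standard errors doubled, 10 members were lower and 1 higher, and without shrinkage (chosen after seeing the data) 17 were lower and 3 higher. Over all annotated exons the median level per length was 20.2 per kb in iMNs and 15.7 per kb in i3Ns. Apart from these settings, whose construction tests fewer genes or moves the threshold, no count of members moved by over 1.5 times. Counts of single lists moved by more in 33 of their 140 alternatives. Weakly expressed genes limit the set, with 8 of 34 members in iMNs and 12 of 37 in i3Ns at a mean under 50. No paired analysis was possible because counts per library were not analysed here, and for the same reason no replicate could be left out.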
